A study of Mus musculus with 12 samples.

Results

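The 9 genes described here are the corticosteroid receptors and a set of genes that glucocorticoids are known to regulate: Nr3c1, Nr3c2, Fkbp5, Sgk1, Tsc22d3, Ddit4, Klf9, Zbtb16 and Hsd11b1. They were chosen by name, and all 9 were found among the 18394 genes of the count table and passed the filter on low counts. Messenger RNA was sequenced from 12 mouse cerebellum samples, 6 wild type (WT) and 6 labelled deltaalpha6-Cre Crfr1 knock-out (cKO). Crfr1, listed as Crhr1, is a receptor for corticotropin-releasing factor, and the α6 in the driver's name is that of a GABA-A receptor subunit typical of cerebellar granule cells. The labels give no strain, age, sex or time of day of dissection, and name no group that carries the driver alone, so effects of receptor loss and of the driver cannot be told apart. Each library is bulk RNA of dissected cerebellum, in which fewer cells of a type and less RNA per cell cannot be told apart.

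Corticotropin-releasing factor is the hypothalamic peptide that starts the hormonal stress response, which ends in the release of glucocorticoids from the adrenal gland. In the brain these steroids bind the glucocorticoid receptor (Nr3c1) and, with higher affinity, the mineralocorticoid receptor (Nr3c2), which then act as transcription factors on DNA elements made of a pair of inverted hexamers. Genes such as Fkbp5, Tsc22d3 and Sgk1 are widely used as readouts of this activity because their messages rise soon after the hormone does.

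A sequence near a start of Sgk1 shows what such an element looks like. For 7 of the 9 genes, 14 promoter windows were searched. Each held 300 bases, from 250 before to 50 after an annotated start (RefSeq, GRCm38.p6). No window of Nr3c1 or Zbtb16 was among those searched, which does not show that none is annotated. The palindromic element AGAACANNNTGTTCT, which reads the same on both strands, stood in 1 of these 14 windows, at a start of Sgk1, and in 3 of all 32851 windows searched (0.00913%). The 250 bases before that start, on the plus strand of chr10:21993640-21993889, are shown with the element in capitals. It lies 189 to 175 bases before the start.

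Sgk1: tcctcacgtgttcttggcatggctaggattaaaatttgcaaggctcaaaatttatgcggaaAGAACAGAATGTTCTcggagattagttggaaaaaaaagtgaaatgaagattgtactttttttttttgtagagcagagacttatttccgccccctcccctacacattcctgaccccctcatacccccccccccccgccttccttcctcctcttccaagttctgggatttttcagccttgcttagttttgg

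The single hexamer AGAACA, on either strand, was common. It stood in 19.0% of all windows searched and in 4 of the 14, counting those inside the palindrome. Apart from the window above they were at another pair of Sgk1 starts and at 1 Tsc22d3 start. These are shown 5′ to 3′ on the gene's strand with the hexamer in capitals, to compare with the full element. The Sgk1 stretches lie on the plus strand at chr10:21881981-21882002 and chr10:21992202-21992222, and the Tsc22d3 stretch on the minus strand at chrX:140600694-140600715.
Sgk1, first start: gaatccgtTGTTCTgtgttttc
Sgk1, later start: tgggactcAGAACAgaaaggc
Tsc22d3: attcgacaTGTTCTaagttctg
A match describes letters only. These windows do not cover introns or distant elements, and the windows of Fkbp5, Ddit4, Klf9, Hsd11b1 and Nr3c2 held neither the palindrome nor the hexamer.

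Levels are in CPM, counts scaled to the size of each library, and include no correction for gene length. Library totals ran from 23803779 to 62104185 counts, and the 6 WT libraries included the 4 smallest of the 12. Crhr1 averaged 97.6 CPM over WT, SD 4.31, and 98.8 CPM over cKO, SD 6.00 (n = 6 each). The labels do not name the deleted exons, so this level does not check the genotype. Over all 15467 tested genes, 426 passed the test (2.75%): 200 were higher in cKO (1.29%) and 226 lower (1.46%). Of 10 marker lists for cerebellar cell types, vessels, blood and forebrain, summed levels overlapped between the genotypes in all 10, while 2 of 10 microglia markers (Cx3cr1 and Csf1r) were called higher and 2 of 11 granule cell markers higher and 4 lower.

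None of the 9 receptor and responsive genes passed that test (0 of 9 higher, against 1.29% of all tested genes, and 0 of 9 lower, against 1.46%; 2.75% in either direction; edgeR quasi-likelihood test, Benjamini-Hochberg adjusted over all genes). DESeq2 and limma-voom likewise called 0 of 9. At an unadjusted p under 0.05 the count was 1 of 9, Sgk1, where 13.9% of all tested genes reached that level. The log2 fold changes of cKO over WT ran from −0.11 to 0.0089 with a median of −0.017, beside −0.00027 over all genes, and 7 of the 9 were negative against 50.2% of all genes. For no member did the 6 libraries of one genotype lie entirely above those of the other, a separation seen in 2.09% of all tested genes. In the authors' deposited table of a DESeq2 comparison the adjusted p of these genes likewise stayed between 0.285 for Sgk1 and 0.999 for Nr3c2.

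**Figure D1:**
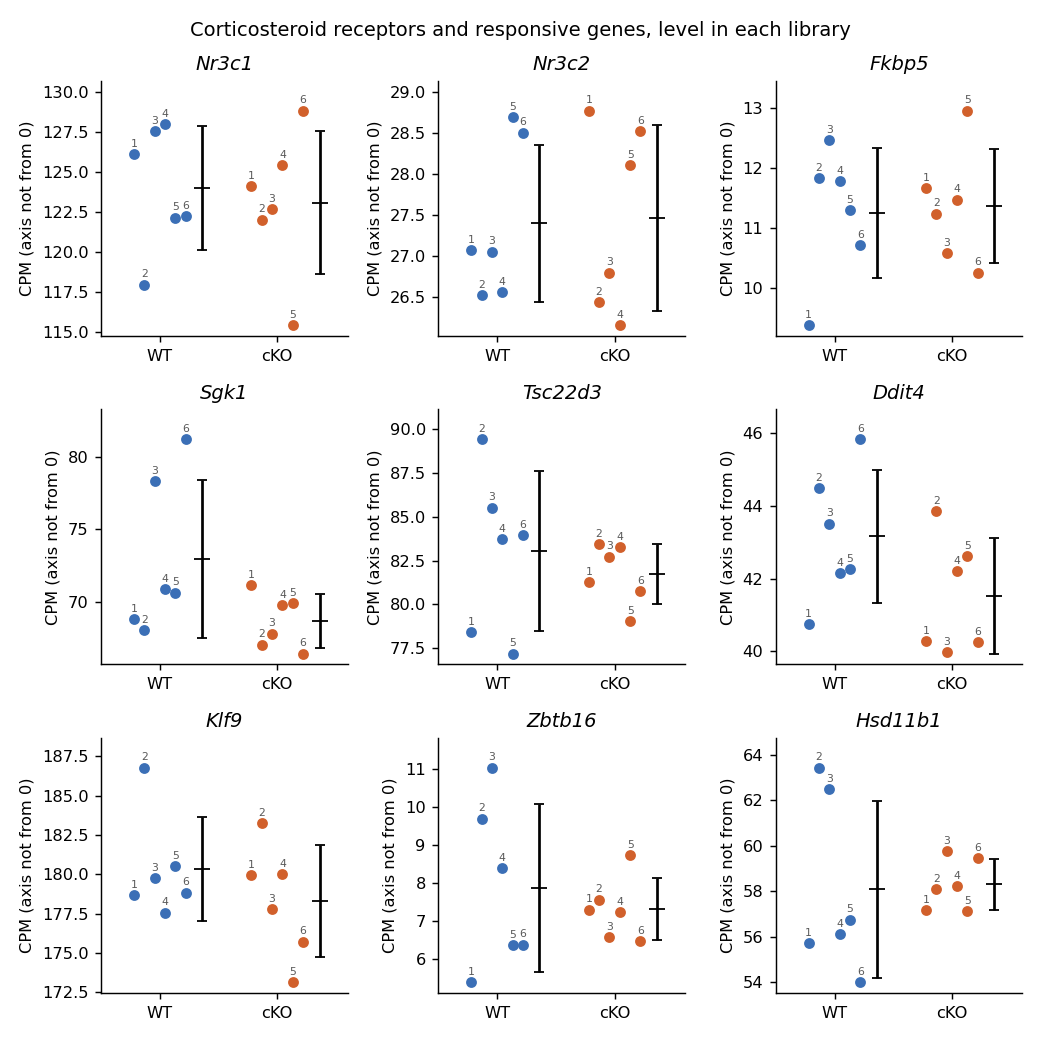
Level of each gene in CPM (vertical axes, not starting at 0) in the 6 WT (blue) and 6 cKO (orange) libraries, numbered by replicate, with the mean and SD beside each group. The groups overlap in all 9 panels, and Sgk1, Tsc22d3, Zbtb16 and Hsd11b1 spread more widely among WT than among cKO libraries.

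Nr3c1 encodes the glucocorticoid receptor (chromosome 18, 39410545 to 39519421, minus strand, mm10). Its level was 118 CPM in the lowest WT library, 124 at the median and 128 in the highest, and 115, 123 and 129 CPM in cKO. All 6 WT values lay inside the cKO range. The means were 124 ± 3.88 and 123 ± 4.46 CPM (SD, n = 6 each), a difference of −0.71% with a 95% interval of −4.61% to 3.34% (edgeR adjusted p = 0.918). Each value rests on 2996 to 7589 counts.

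Nr3c2 encodes the mineralocorticoid receptor, which binds corticosterone tightly and is partly occupied even at resting hormone levels (chromosome 8, 76899442 to 77245012, plus strand). WT libraries ran from 26.5 to 28.7 CPM with a median of 27.1, and cKO libraries from 26.2 to 28.8 with a median of 27.45. The groups again overlapped throughout. The fitted difference was −0.0071%, with a 95% interval of −5.04% to 5.30% (edgeR adjusted p = 0.9996). Noncoding genes (Gm10649, Gm24838 and Gm23260) overlap Nr3c2. The library kit keeps strand, but whether the counting used it is not stated.

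The balance of the receptor messages was therefore compared within each library, where scaling cancels. Nr3c1 reads outnumbered Nr3c2 reads 4.11 to 4.82 times in the 12 libraries, 4.53 ± 0.233 times in the 6 WT and 4.49 ± 0.243 times in the 6 cKO libraries (SD). The mean log2 ratio of Nr3c2 to Nr3c1 differed by 0.014 (two-sided exact permutation test over all assignments of the libraries, p = 0.751, where the smallest possible p is 0.00216). Per kilobase of annotated exon, a fairer scale between genes of unequal length, Nr3c1 stood at 16.1 CPM and Nr3c2 at 4.24 CPM.

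Hsd11b1 encodes the reductase that regenerates active glucocorticoid inside cells from its inert 11-keto form (chromosome 1, 193221634 to 193264075, minus strand). Its level ran from 54.0 to 63.4 CPM in WT, median 56.4, and from 57.1 to 59.8 CPM in cKO, median 58.2. All 6 cKO libraries lay within the WT range, in the gap between 4 low WT libraries and WT replicates 2 and 3. The fitted difference was 0.50% (95% interval −4.55% to 5.83%, edgeR adjusted p = 0.959). Hsd11b1 overlaps Gm38118 on its own strand, and the protein-coding gene Lamb3 and the antisense gene 4930570N18Rik on the opposite one.

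Fkbp5 encodes FKBP51, a co-chaperone that lowers the receptor's affinity for hormone and is itself induced by the receptor, closing a feedback loop (chromosome 17, 28399094 to 28517527, minus strand). It ran from 9.39 to 12.5 CPM in WT, median 11.5, and from 10.3 to 12.9 CPM in cKO, median 11.4. The lowest of the 12 values was WT replicate 1 and the highest cKO replicate 5, so the genotypes spanned much the same range. The fitted difference was 0.62% (95% interval −8.29% to 10.4%, edgeR adjusted p = 0.974). Other annotated genes overlap Fkbp5, AC154912.5 and AC154912.3 on its strand and AC154912.1 and Gm22146 on the opposite one, so part of its counts could be theirs.

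Zbtb16 encodes PLZF, a zinc finger transcription factor that glucocorticoids induce in many tissues (chromosome 9, 48654297 to 48836222, minus strand). It was the least abundant of the 9 in CPM and by far the most variable. WT libraries ran from 5.39 to 11.05 CPM, median 7.39, and cKO libraries from 6.48 to 8.74, median 7.27. The highest library exceeded the lowest 2.05-fold, both of them WT, while Klf9 differed by no more than 1.08-fold over the same 12 libraries. The fitted difference of −7.64% therefore carried an interval of −28.1% to 18.6% (edgeR adjusted p = 0.827), and a change of either sign up to that size is not detectable here.

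Sgk1 encodes a kinase that controls ion channels and transporters and is expressed by oligodendrocytes, vessels and neurons (chromosome 10, 21882184 to 21999903, plus strand). Its level was 68.0 CPM in the lowest WT library, 70.8 at the median and 81.2 in the highest, against 66.4, 68.8 and 71.2 CPM in cKO. WT replicates 3 and 6, at 78.3 and 81.2 CPM, stood above the other 10 libraries, which lay between 66.4 and 71.2. The means were 73.0 ± 5.45 and 68.7 ± 1.86 CPM (SD; 6 libraries per genotype; edgeR log2 fold change −0.094 with SE 0.039, unadjusted p = 0.0251, adjusted p = 0.264). This was the smallest adjusted p of the 9 and it did not pass. The log2 fold change was −0.058 without WT replicate 6 and −0.148 with the log2 library total as a covariate (SE 0.039, edgeR adjusted p = 0.0546).

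WT replicates 3 and 6 were the deepest WT libraries, at 41093817 and 62104185 counts. Among cKO libraries, replicates 2 to 6 held 43062387 to 58710874 counts and 66.4 to 69.9 CPM of Sgk1. The smallest cKO library, replicate 1, held 32316716 counts and 71.2 CPM of Sgk1. The 12 endothelial and mural markers summed to 355 and 353 CPM in WT replicates 3 and 6. These were the highest of the WT range of 344 to 355 CPM, and cKO libraries with lower Sgk1 ran from 348 to 376 CPM. The 10 oligodendrocyte markers summed to 3890 CPM in WT replicate 3 and to 3890 in WT replicate 1, whose Sgk1 was 68.8 CPM. In WT replicate 6 they summed to 3795 CPM, the lowest of the WT range of 3795 to 4123. The part of depth and of these cells in the Sgk1 values was not tested.

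Tsc22d3 encodes GILZ, a leucine zipper protein that carries part of the anti-inflammatory action of glucocorticoids (chromosome X, 140539528 to 140600659, minus strand). It ran from 77.2 to 89.4 CPM in WT, median 83.8, and from 79.0 to 83.4 in cKO, median 82.0. No WT library fell inside the narrow cKO range, although WT values lay both above it and below it. The fitted difference was −1.63% (95% interval −5.98% to 2.92%, edgeR adjusted p = 0.809).

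Ddit4 encodes REDD1, an inhibitor of the growth kinase complex mTORC1 that responds to glucocorticoids, low oxygen and energy stress (chromosome 10, 59949669 to 59951834, minus strand). Its levels were 40.8 CPM at the lowest, 42.9 at the median and 45.8 at the highest in WT, and 40.0, 41.2 and 43.9 CPM in cKO. Values overlapped, with 3 cKO libraries below every WT library. The fitted difference was −4.04% (95% interval −8.62% to 0.76%, edgeR unadjusted p = 0.0939, adjusted p = 0.459).

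Klf9 encodes a Krüppel-like transcription factor induced in neurons by glucocorticoids and by thyroid hormone (chromosome 19, 23141226 to 23168134, plus strand). It was the most abundant member and the steadiest, from 178 to 187 CPM in WT, median 179, and from 173 to 183 CPM in cKO, median 179. The fitted difference was −1.14% (95% interval −4.33% to 2.16%, edgeR adjusted p = 0.818).

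**Figure D2:**
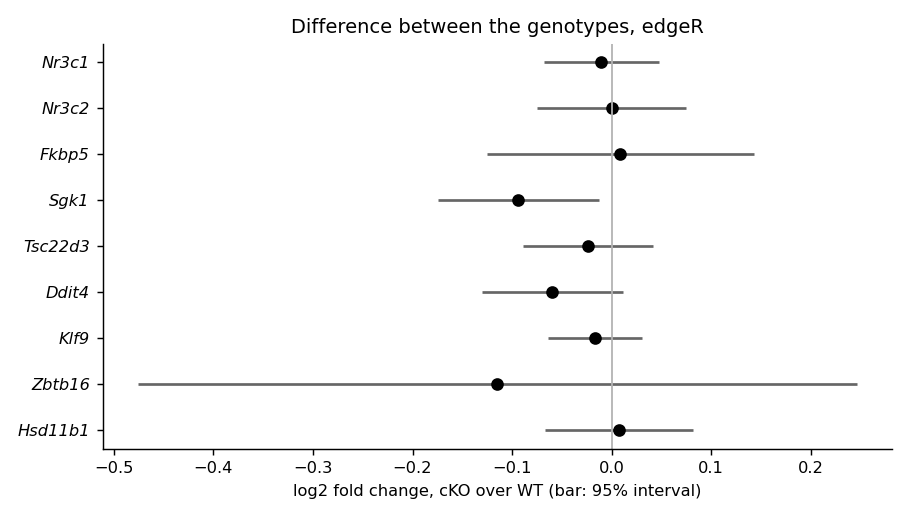
Fitted log2 fold change of cKO over WT for each gene (points) with its 95% interval (bars), from edgeR. The interval of Sgk1 excludes 0 before adjustment over all genes, those of the other 8 include it, and Zbtb16 has the widest.

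Per kilobase of annotated exon the members ranked as follows. Klf9 led at 37.2 CPM per kilobase, followed by Ddit4 at 24.1, Tsc22d3 at 19.0, Nr3c1 at 16.1, Sgk1 at 14.5, Hsd11b1 at 13.7, Nr3c2 at 4.24, Zbtb16 at 1.44 and Fkbp5 at 1.19. The 12 libraries of Nr3c1 overlapped those of Sgk1, those of Sgk1 overlapped those of Hsd11b1, and those of Zbtb16 overlapped those of Fkbp5. These ranges alone do not settle the order within the pairs, which was not compared library by library. The other neighbours in this order did not overlap in any library. Exon length is the union of all annotated transcripts.

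The genes also differed in how widely they varied between libraries of the same genotype. The biological coefficient of variation that edgeR estimates within genotypes was 19.1% for Zbtb16, above 97.8% of the 1320 tested genes of like level. It was 4.57% for Sgk1 (above 90.8% of 2456 genes) and 6.96% for Fkbp5 (above 81.0% of 1650 genes). Klf9 was at the other end, with 2.98%, above only 7.61% of 1236 genes of its level, and Nr3c2 had 3.84% (above 27.4% of 2482). Genes of like level are those within 0.5 of the member's log2 mean CPM.

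In 4 of the 9 genes the spread was at least 2-fold wider among WT than among cKO libraries, a pattern picked out after the values were seen. The SD of log2 CPM in WT over that in cKO was 3.48 for Hsd11b1, 2.70 for Sgk1, 2.61 for Tsc22d3 and 2.57 for Zbtb16. A ratio of 2 or more was found in 5.88% of the 11666 genes with a mean of at least 5 CPM, whose median ratio was 0.927. The remaining 5 had ratios from 0.839 for Nr3c2 to 1.23 for Fkbp5. With every library thinned to the smallest total the same 4 genes gave 2.95, 2.17, 2.56 and 2.24, and 4.65% of genes reached 2. The difference in spread was not tested.

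Across libraries Fkbp5 and Zbtb16 rose and fell together in both genotypes. WT replicate 1 was lowest for both, at 9.39 and 5.39 CPM, and WT replicate 3 was highest for both within WT, at 12.5 and 11.05 CPM. Among cKO libraries replicate 5 was highest for both, at 12.9 and 8.74 CPM, and replicate 6 lowest for both, at 10.3 and 6.48 CPM. After the genotype mean was subtracted, Pearson's r of log2 CPM was 0.87 over 12 libraries (permutation p = 0.00011, adjusted p = 0.00396 over all 36 pairs) and Spearman's rho was 0.85 (permutation p = 0.00062, adjusted p = 0.0223). Within WT r was 0.89 and within cKO 0.96 (n = 6 each), and without the 2 libraries farthest from the Fkbp5 median, WT replicate 1 and cKO replicate 5, it was 0.81.

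That relation was the 1 of 36 pairs that passed. It kept an r of 0.795 to 0.919 when any 1 library was left out, and 0.87 to 0.90 when the mean level of each of the 10 marker lists was regressed out in turn, which was tried only after the values were known. When counts were thinned to the smallest library r was 0.75 and the pair no longer passed (permutation adjusted p = 0.0898). Zbtb16 rests on 128 to 455 counts per library and Fkbp5 on 223 to 665 before thinning.

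**Figure D3:**
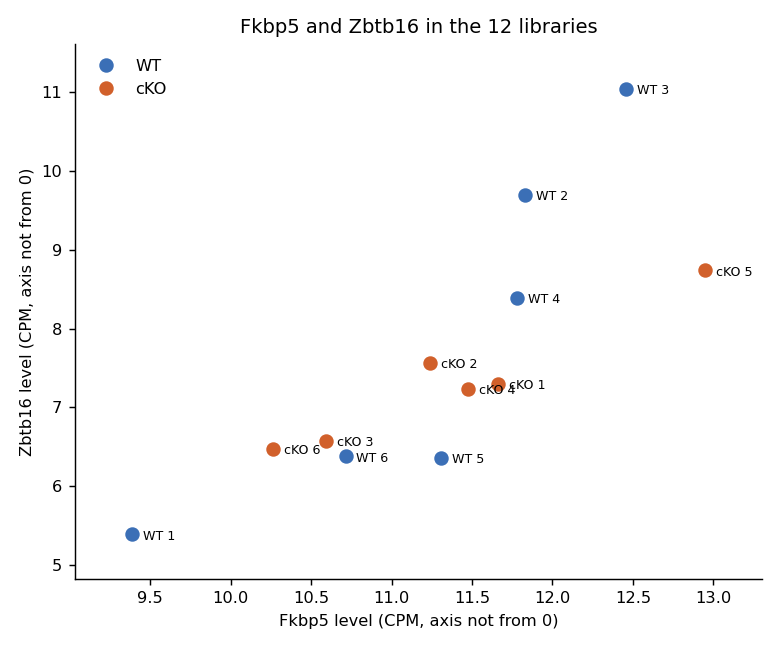
Level of Zbtb16 (vertical axis) against Fkbp5 (horizontal axis) in CPM, neither axis starting at 0, in the 6 WT and 6 cKO libraries named beside the points. Both genes are lowest in WT replicate 1, and the libraries of each genotype rise together.

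The other 35 pairs did not pass. Tsc22d3 and Klf9 had r = 0.57 (permutation p = 0.0393, adjusted p = 0.549) and a rho of 0.56, with 0.55 within WT, 0.86 within cKO and 0.78 without the 2 libraries farthest from the Tsc22d3 median. No relation between the messages of the receptors was detected at this number of libraries (Nr3c1 with Nr3c2, r = −0.082, permutation p = 0.816, adjusted p = 0.907). Nr3c1 and Fkbp5 had r = −0.42 (permutation p = 0.195, adjusted p = 0.549), −0.043 within WT and −0.82 within cKO. Hsd11b1 and Zbtb16 had r = 0.83 within WT and −0.84 within cKO (n = 6 each), where Hsd11b1 ran only from 57.1 to 59.8 CPM. The pooled r was 0.66 (permutation p = 0.121, adjusted p = 0.549). Neither the r within a genotype nor the difference between the genotypes was tested. Of the 36 pairs 21 had a positive r, and the median was 0.083.

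**Figure D4:**
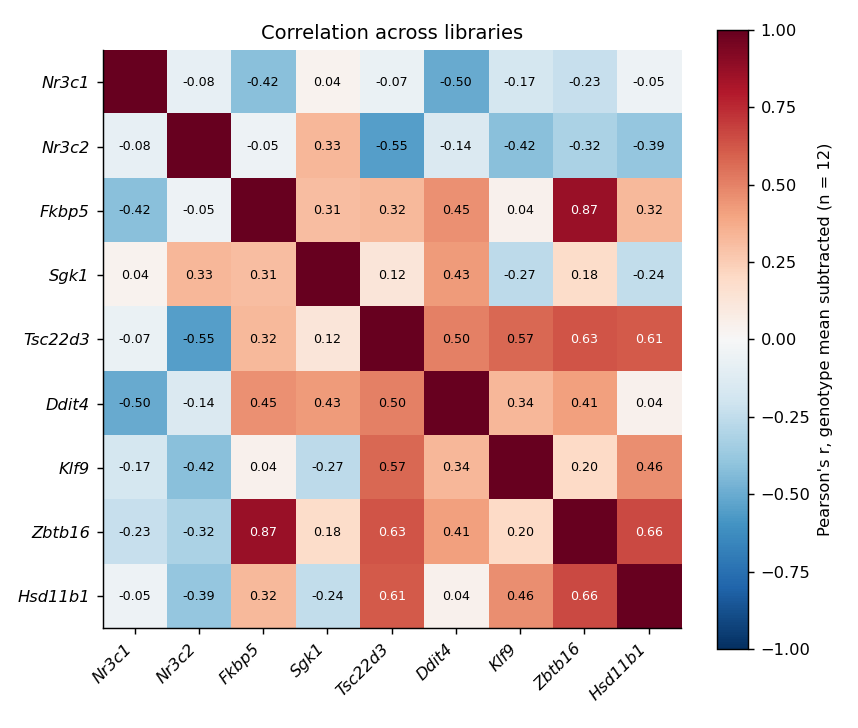
Pearson's r of log2 CPM between each pair of the 9 genes over 12 libraries, after the genotype mean was subtracted (red positive, blue negative; the diagonal is each gene with itself). Fkbp5 with Zbtb16, at 0.87, is the 1 pair that passed adjustment over 36 pairs, and the other 35 lie between −0.55 and 0.66.

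The 3 genes whose pattern over the 12 libraries was most like each member's were taken from 13820 genes of at least 1 CPM, by Pearson's r of log2 CPM with genotype means subtracted. Atp10a, a phospholipid flippase gene, was the only one that stood beside more than 1 member, with r = 0.97 for Zbtb16 and 0.90 for Fkbp5. Zbtb16 was next most like Olfml2a (0.90) and Bcl2l12 (0.89), and Fkbp5 was most like the efflux transporter gene Abcc4 (0.92) and Chadl (0.90). The metallothionein gene Mt2, itself in the list of other glucocorticoid-induced genes described next, was first for Ddit4 (0.93, with 0.93 within WT and 0.94 within cKO), before Kremen1 (0.91) and Grpel1 (0.90). For the receptors the genes were Vps4b (0.95), Ireb2 (0.94) and Hif1a (0.94) beside Nr3c1, and Rab10os (0.93), Nxpe4 (0.88) and Cacnb1 (0.87) beside Nr3c2. Sgk1 was most like Slc10a3 (0.88), Gys1 (0.85) and Slc35f6 (0.84). Tsc22d3 was most like Nek3 (0.94), Gcc1 (0.91) and Nhlh2 (0.89). Klf9 was most like Cnot2 (0.92), Tmem183a (0.91) and Commd10 (0.90), and Hsd11b1 like Chmp2b (0.89), Cisd2 (0.88) and Cebpzos (0.86). Such maxima among all genes compared describe these libraries and have no test.

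In a list of 26 other glucocorticoid-induced genes, 0 passed the edgeR test in either direction (2.75% of all tested genes did), 17 had negative and 9 positive log2 fold changes, and the median was −0.056 (−0.00027 over all genes). An unadjusted p under 0.05 was reached by 3 (11.5%, against 13.9% of all tested genes), namely Cebpd, Fam107a and Sult1a1, each with a negative sign. Cebpd, a C/EBP transcription factor of acute responses, was 2.49 ± 0.196 CPM in the 6 WT libraries and 1.96 ± 0.130 CPM in the 6 cKO libraries (SD), and its 6 cKO libraries, 1.83 to 2.21 CPM, all lay below its 6 WT libraries, 2.29 to 2.83 CPM. A separation of this kind was seen in 2.09% of all tested genes. The log2 fold change of Cebpd, −0.34 (SE 0.093), had an edgeR adjusted p of 0.0511, just past the threshold. Under the alternatives the adjusted p of Cebpd was 0.0392 to 0.465, passing only without cKO replicate 4. Fam107a, an actin-binding stress-responsive gene, was 894 ± 52.1 and 827 ± 36.9 CPM (SD; 6 libraries per genotype; edgeR log2 fold change −0.11 with SE 0.036, adjusted p = 0.129). It passed without WT replicate 4 (−0.14, edgeR adjusted p = 0.0182) and with surrogate variables (−0.19, edgeR adjusted p = 0.000821). Sult1a1, a sulfotransferase, had a log2 fold change of −0.18 (SE 0.080, edgeR adjusted p = 0.316), and the rapid targets Per1, Dusp1 and Nfkbia had 0.087, 0.065 and −0.065 (edgeR adjusted p = 0.580, 0.887 and 0.746).

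Of 13 genes of the chaperone complex that holds unliganded receptor ready for hormone, 1 passed, where 2.75% of all tested genes did. The median log2 fold change was 0.0056. Hspa8, the constitutive HSP70 that loads client proteins onto HSP90, rose in cKO (1273 CPM over WT, SD 28.5, and 1366 CPM over cKO, SD 21.9, n = 6 each; edgeR log2 fold change 0.10 with SE 0.022, adjusted p = 0.00967), and all 6 cKO libraries, from 1334 CPM, lay above all 6 WT libraries, up to 1304 CPM. Such a separation was seen in 2.09% of all tested genes. The next smallest p belonged to Bag1 and Ppp5c, with log2 fold changes of −0.044 and −0.042 (edgeR adjusted p = 0.437 and 0.588).

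Among 13 coregulators that the receptors recruit, 0 passed, where 2.75% of all tested genes did, with a median log2 fold change of 0.0035. Nrip1 and Ncoa3 had log2 fold changes of −0.081 and 0.049 (edgeR adjusted p = 0.424 and 0.454). Of 9 listed genes of steroid supply and clearance 7 were tested, Hsd11b2 and Serpina6 being too low, and 0 passed. An unadjusted edgeR p under 0.05 was reached by 1 (14.3%, against 13.9% of all tested genes). That gene was Cyp11a1, the side-chain cleavage enzyme that starts steroid synthesis, at 3.30 ± 0.259 and 3.84 ± 0.371 CPM (SD; 6 libraries per genotype; edgeR log2 fold change 0.21 with SE 0.085, adjusted p = 0.246). Tspo and Abcb1b had 0.15 and −0.087.

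Of 16 partners of SGK1 and REDD1, 0 passed, where 2.75% of all tested genes did, and the median log2 fold change was 0.013. An unadjusted p under 0.05 was reached by 2 (12.5%, against 13.9% of all tested genes), Nedd4l and Ndrg1, known as substrates of the SGK1 kinase. Nedd4l, a ubiquitin ligase for ion channels, was 132 ± 3.30 and 139 ± 3.55 CPM (SD; 6 libraries per genotype; edgeR log2 fold change 0.076 with SE 0.025, adjusted p = 0.121, DESeq2 adjusted p = 0.0479). Ndrg1 was 97.1 ± 2.00 and 102 ± 3.03 CPM (SD; 6 libraries per genotype; edgeR log2 fold change 0.076 with SE 0.025, adjusted p = 0.140), and its cKO libraries lay above its WT libraries by a margin of 98.96 against 98.89 CPM. Genotypes that did not overlap were seen in 2.09% of all tested genes. The redox regulator Txnip had a log2 fold change of −0.11 (edgeR adjusted p = 0.458).

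**Figure D5:**
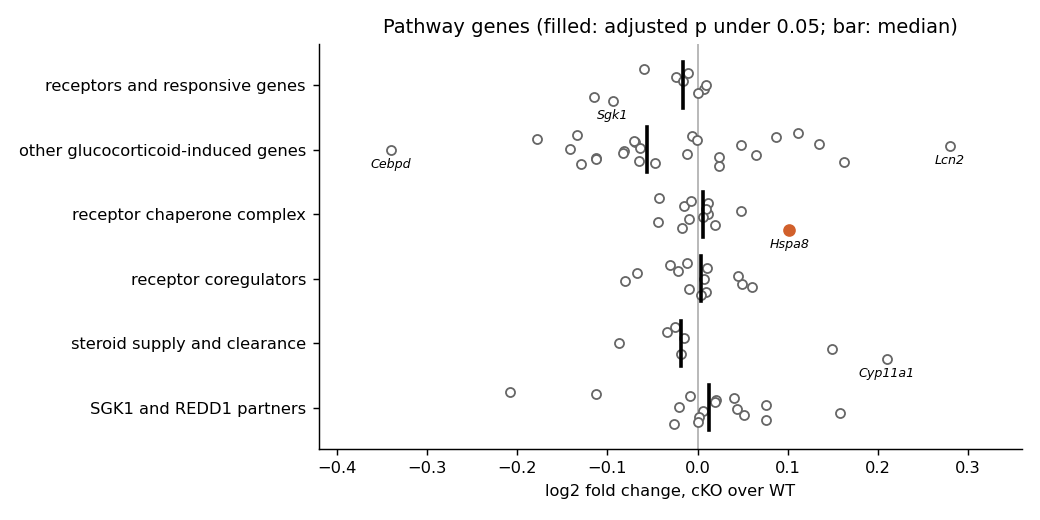
Log2 fold change of cKO over WT (horizontal axis) for each tested gene of the receptor and responsive set and of the 5 pathway lists, with the median of each list as a bar. Hspa8, filled, is the 1 gene with an adjusted p under 0.05, and Cebpd lies lowest at −0.34.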

How the data were processed

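Raw counts per gene symbol were deposited for 12 poly(A) libraries made from freshly dissected cerebella with a stranded kit, per the labels' protocols, with STAR and mm10 named without version or role in the submitters' processing notes. Which counting tool, annotation and strand setting were used is not given in the sources used here. The authors also deposited a DESeq2 table with mean scaled counts (a signal), log2 fold changes, a test statistic (score) and p-values, per the file headers. Only its adjusted p is quoted. All 12 count columns matched a sample, with 0 left over.

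Counts were filtered with filterByExpr, scaled by TMM and tested with edgeR 4.0.16 quasi-likelihood (R 4.3.3), Benjamini-Hochberg adjusted p under 0.05 over 15467 genes. Standard errors and 95% intervals came from the test statistic. Correlations used log2 CPM (prior count 0.5) with 100000 shuffles within genotype. limma 3.58.1, DESeq2 1.42.0 and sva 3.50.0 served as alternatives. Positions and exon lengths came from GENCODE M21. The fit was tested on simulated data. Pairs of libraries of a group differed beyond counting noise (chi-square per degree of freedom at least 2.47), so each counted as 1 sample. The labels do not say that each sample is a separate animal, so p-values measure the spread between these samples, which may be technical.

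The members and lists were chosen with earlier results of these data known. Named genes are the 9 members, in each pathway list every called gene and the 3 with the smallest p, and per member the 3 genes of most similar pattern. A few others are named to complete a count or as well-known rapid targets. A gene that this rule names is not reported here.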

Additional observations from a re-analysis of the deposited data

Results flagged for a closer look

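Klf9 in WT replicate 2 was 187 CPM, apart from the other 5 WT libraries, of which the next highest was 181 CPM; its gap was 0.681 of the WT range. It was the only outlying value in 20 groups of 6 examined (9 genes and the receptor ratio in each genotype), and chance gives about 1 in 20.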

How the results depend on the processing

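The count of members called was 0 under all 8 other fits and all 12 fits that left out a library. Genes called over the whole table fell from 426 to 209 with surrogate variables, 262 with library total and 235 with the forebrain markers as covariates, and ran from 292 to 482 without 1 library. The glucocorticoid-induced list had 1 call with surrogate variables and 0 to 1 without 1 library, the SGK1 and REDD1 partners 1 with DESeq2, and the correlated pairs 0 with thinned counts. Sgk1, Tsc22d3, Ddit4 and Klf9 kept a negative sign throughout. Signs of values near 0 turned, none of them called: Nr3c1 was 0.035 with surrogate variables and −0.024 to 0.0077 without 1 library. Nr3c2 was 0.00051 with RLE scaling, 0.0012 without the filter, 0.013 thinned and −0.012 to 0.015 without 1 library. Fkbp5 was −0.050 with surrogate variables, −0.033 with the forebrain markers and −0.033 to 0.043 without 1 library. Without 1 library Zbtb16 ran from −0.19 to 0.016, Hsd11b1 from −0.016 to 0.033 and the log2 receptor ratio from −0.011 to 0.033. The cause was not tested. No paired analysis was possible because the labels give no replicate numbers shared between the genotypes. Thinning every library to the smallest total left the SE of Zbtb16 at 0.16 (0.1625 thinned, 0.1643 with all counts).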

Other observations

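The 10 choroid plexus and meningeal markers were the most uneven of the marker lists, summing to 272 to 710 CPM in WT and 205 to 1090 CPM in cKO libraries, with 0 of 10 called. cKO replicate 6, the highest, had the lowest Sgk1 of all 12 libraries (66.4 CPM). Erythrocyte markers rested on a single tested gene, Alas2, at 3.98 to 4.42 CPM in WT and 3.21 to 6.96 CPM in cKO.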
